A study of Mus musculus with 12 samples.

Results

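The 44 genes described here encode the subunits, assembly chaperones, activators and inhibitor of the mouse proteasome. They were taken by name from the deposited gene table: protein-coding genes called Psma, Psmb, Psmc, Psmd, Psme, Psmf or Psmg with a number, without the inducible subunits Psmb8 and Psmb9, and with at least 10 counts in 3 or more libraries. The pattern matched 46 of the 55487 gene IDs. Psmb11, a thymus-restricted beta subunit, reached at most 6 counts and Psma8, an alpha subunit known from testis, reached 10 counts in only 2 libraries, so both stayed out. The member with the lowest median, Psmg4, ranged from 384 to 627 counts.

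The proteasome is the protease that destroys proteins tagged with ubiquitin. Its 20S core is a stack of rings, the outer ones built from alpha subunits that gate the channel and the inner ones from beta subunits, of which Psmb5, Psmb6 and Psmb7 carry the cutting sites. The 19S cap sits on the core, and its base of ATPases and scaffolds unfolds substrates while its lid removes ubiquitin. Interferon is known to swap the cutting subunits for Psmb8, Psmb9 and Psmb10, which makes the immunoproteasome.

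The 12 libraries hold RNA of entire mouse kidneys at P15, 15 days after birth, 3 in each of 4 groups. By their titles and genotype labels the groups are Cep120 KO (homo), its controls (het), Pkd1 KO (homo) and its controls (het), and the genotype field calls both sets of controls WT. Cep120 is a centriole protein and Pkd1 is the gene of polycystin-1, whose loss gives cystic kidneys. The protocol names Hoxb7, a promoter active in the ureteric bud and collecting duct, for the Cep120 line, and the titles of all 4 groups carry the word hox. Other cells of the kidney would then keep the genes, and the labels state neither the deleted exons nor whether each library is a separate animal, so p-values measure the spread between these libraries. Group names below mean the libraries labelled so.

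Library totals ran from 23070736 to 31837973 counts, and the 44 genes together took 0.600% to 0.696% of them. The targeted genes did not check the labels: Pkd1 stood at 36.4, 26.2 and 23.9 CPM (counts scaled to library size) in the libraries labelled Pkd1 KO against 16.1, 13.9 and 21.6 in their controls (log2 fold change 0.74, edgeR adjusted p = 0.00952). Cep120 stood at 16.6, 20.4 and 16.6 CPM in the libraries labelled Cep120 KO against 16.2, 18.7 and 13.7 (0.14, edgeR adjusted p = 0.835). The cell types of the kidney differed widely between the Pkd1 groups. Summed levels of 8 proximal tubule markers were 482 to 730 CPM in Pkd1 KO against 4389 to 7202 in controls, of 8 macrophage markers 1217 to 1795 against 140.2 to 446, and of 4 stromal markers 3818 to 5959 against 982 to 1779. In whole kidney, fewer cells of a type and less RNA per cell cannot be told apart, and the part of these shifts in any result below was not tested. Each library labelled Pkd1 KO had Xist under 1 CPM, while its level in their controls was between 50.0 and 136 CPM, so within the Pkd1 line Xist level and genotype cannot be told apart. Xist was uneven in the Cep120 line too, at 0.269, 0.325 and 184 CPM in KO 1, 2 and 3 against 59.8, 128 and 141 in controls. Ddx3y, like Xist a marker of sex, was at 53.6 to 55.8 CPM in the Pkd1 KO libraries and at 0 in Pkd1 controls 1 and 2. By these markers sex ran with genotype in the Pkd1 line, apart from Pkd1 control 3, which held both. Ddx3y stood beside Xist in some libraries. It was at 39.4 CPM in Pkd1 control 3, 10.7 in Cep120 control 1, 4.68 in Cep120 control 2 and 7.24 in Cep120 KO 3. The number of genes with a count was 30321 to 32740 in Pkd1 control 3 and 5 of the Cep120 libraries, and 23544 to 25665 in the others.

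Per length, in TPM (length-corrected abundance), the proteasome genes covered a wide span of levels. The highest medians over the 12 libraries belonged to the core subunits Psmb6 (583 TPM), Psma7 (501 TPM) and Psmb3 (494 TPM). Among 19S genes the ATPase Psmc3 led with a median of 227 TPM, while the lid subunit Psmd3 had the lowest, 34.3 TPM. The large activator Psme4 closed the order at 10.6 TPM. Most genes were even across libraries. The ratio of the highest to the lowest library was 1.13 for the ATPase Psmc5 and 1.16 for Psmb3, against 3.19 for Psmb10, 2.35 for Psmd1 and 2.01 for Psmd2.

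**Figure D1:**
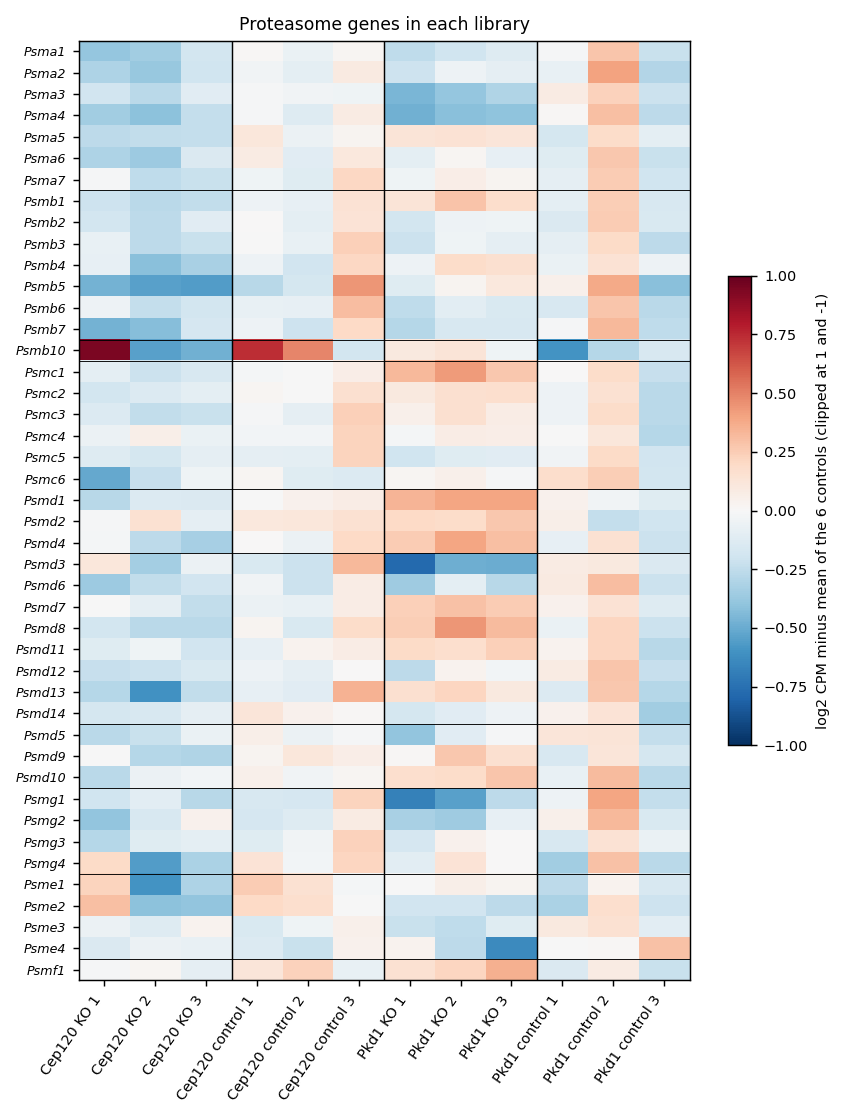
Log2 CPM of each of the 44 proteasome genes (rows, grouped by role with lines between roles) in each of the 12 libraries (columns), minus the mean of the 6 controls; the colour scale is clipped at 1 and -1. Psmb10 is high in Cep120 KO 1 and Cep120 controls 1 and 2, Pkd1 control 2 is high for most core subunits, and the 3 Pkd1 KO libraries are red for Psmd1, Psmd4, Psmd8 and Psmc1 and blue for Psmd3, Psma3 and Psma4.

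In Pkd1 KO kidneys, proteasome genes moved little and in both directions. Of the 44 genes, 10 passed an adjusted p of 0.05 in edgeR's quasi-likelihood test (22.7%), against a background of 44.4% of all 19890 genes tested. Higher were 6, the 19S genes Psmd1, Psmd4, Psmd8, Psmc1 and Psmd2 and the inhibitor Psmf1, where 22.1% of all genes were called higher. Lower were 4, the alpha subunits Psma3 and Psma4, the lid subunit Psmd3 and the core assembly chaperone Psmg1, where 22.4% of all genes were called lower. The log2 fold changes of the 44 ran from -0.60 to 0.41 with a median of -0.03 and an SD of 0.27, while those of all genes had a median of -0.04 and an SD of 1.46. Among the 7346 genes in the same range of mean expression the median was 0.05, the SD was 0.93 and 55.3% were called. Groups did not overlap for 13 of the 44, 8 higher and 5 lower, where the background was 53% of all genes, 27.4% higher and 25.5% lower.

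These calls depended on the fit. Psmd1 passed in the same direction in 27 of 28 alternative runs, Psmd3 in 26 of 27 and Psma4 in 25 of 27. Psma3 did so in 25 of 28, Psmg1 in 21 of 27 and Psmd2 in 15 of 27. Psmc1 did so in 13 of 27 runs, Psmd4 in 11 and Psmd8 in 9, and Psmf1 was not followed. With a term for Xist none of the 44 passed, and the share of all genes called went from 44.4% to 10.1%. Within the Pkd1 line that term splits the libraries exactly as genotype does. The size of the term came only from Cep120 KO 1 and 2 against Cep120 KO 3. That fit therefore cannot tell Xist level and genotype apart in the Pkd1 line, and its drop in calls is not read further. Without Pkd1 KO 1, 2 or 3 in turn the count was 5, 4 and 5, where 35.4%, 35.1% and 37.6% of all genes were called. Without Pkd1 control 2 there were 8 higher and 2 lower, and without Pkd1 control 3 there were 1 and 8. Over all genes the same fits called 3876 higher and 3830 lower, and 4398 and 4282. The split between higher and lower moved with the scaling in the same test: it was 1 higher and 6 lower under DESeq-type (RLE) factors, 1 and 8 under upper-quartile factors and 12 and 4 with library totals alone. Over all genes these fits called 4157 higher and 4669 lower, 3779 and 5095, and 4745 and 3809. In fits that changed the test or the unit as well, the proteasome genes split 6 and 7 with DESeq2, 14 and 4 with the deposited log2 CPM, and 20 and 2 with the deposited TPM. Over all genes the calls were 4340 higher and 5039 lower with DESeq2 and 4930 and 3810 with log2 CPM. With TPM they were 5634 and 2689 at a pseudocount of 1, and 5504 and 2866 at 0.1. With a term for the split in the number of genes with a count, 4 proteasome genes were called higher and 8 lower, with 8 of the 10 kept. Over all genes that fit called 4925 higher and 4536 lower. The median of all genes ran from -0.13 under upper-quartile factors to 0.11 with TPM at a pseudocount of 1 and 0.16 at 0.1.

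**Figure D2:**
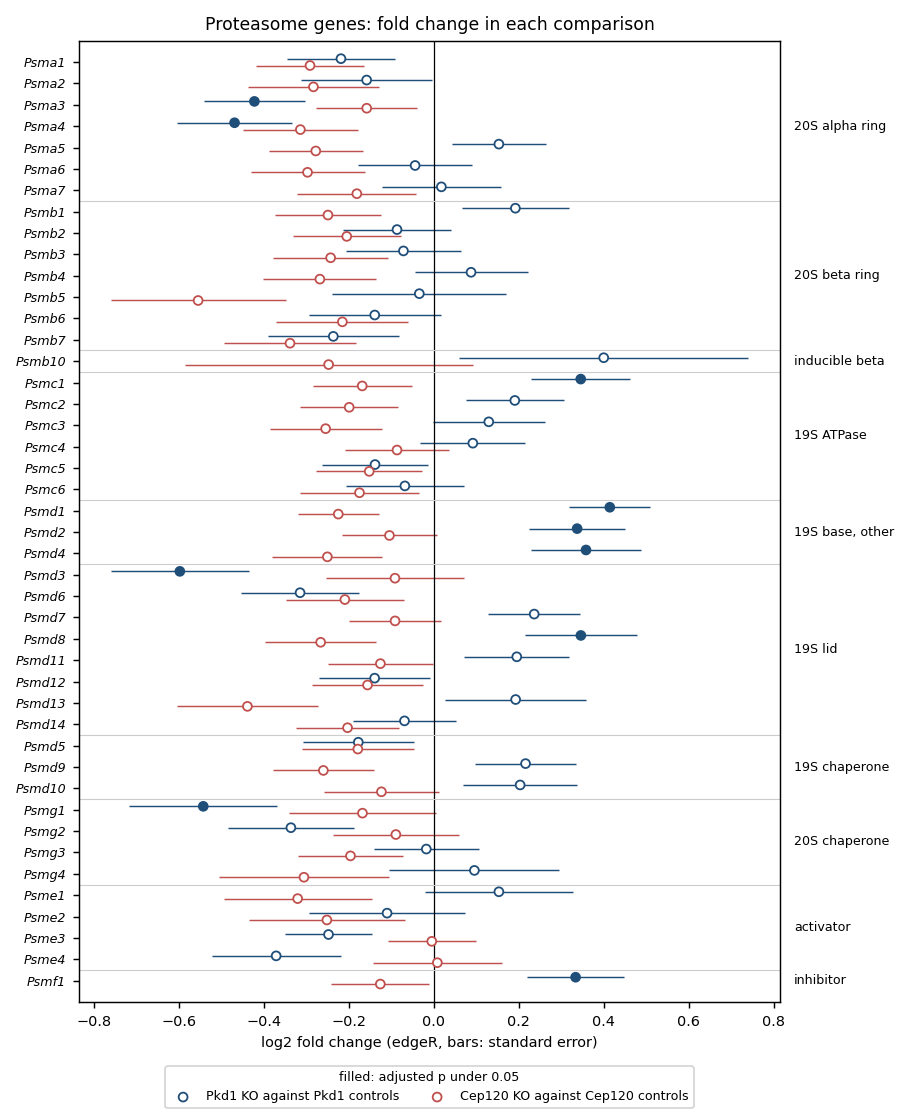
Log2 fold change of each proteasome gene from the edgeR fit with its standard error, for Pkd1 KO against Pkd1 controls (blue) and Cep120 KO against Cep120 controls (red), grouped by role; filled points passed an adjusted p of 0.05. The 10 filled points are all from the Pkd1 comparison, and 43 of the 44 red points lie below 0.

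The 3 base scaffolds that are not ATPases, Psmd1, Psmd2 and Psmd4, all rose in Pkd1 KO in the main fit. Psmd1, a large scaffold of the base on which the ubiquitin receptor Adrm1 docks, was at 172, 178 and 179 CPM in Pkd1 KO 1, 2 and 3 and at 140.2, 133 and 125 in the controls. Every Pkd1 KO library was above every control, and the log2 fold change came to 0.41 with an SE of 0.10 (edgeR adjusted p = 0.00360). Psmd4, a ubiquitin receptor, was at 175, 193 and 181 CPM against 139, 164 and 126 (log2 fold change 0.36, SE 0.13, edgeR adjusted p = 0.0388). Its groups did not overlap, though Pkd1 control 2 came close to the lowest KO library. Psmd2, the other large scaffold and a docking site for proteins with ubiquitin-like domains, was at 261, 259.8 and 276 CPM against 238, 194 and 199.3 (0.34, SE 0.11, edgeR adjusted p = 0.0274), again without overlap.

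Of the 6 ATPases, which thread substrates into the core, only Psmc1 passed the threshold. It was at 275, 296 and 266 CPM in Pkd1 KO against 221, 250.4 and 188 in the controls, with no overlap (log2 fold change 0.35, SE 0.12, edgeR adjusted p = 0.0292). The other 5 did not pass, with log2 fold changes of 0.19 for Psmc2, 0.13 for Psmc3, 0.09 for Psmc4, -0.07 for Psmc6 and -0.14 for Psmc5.

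The lid held both directions. Psmd8, needed for lid assembly, was at 268, 308 and 282 CPM in Pkd1 KO against 216, 263 and 195 (log2 fold change 0.35, SE 0.13, edgeR adjusted p = 0.0471). Its highest control, Pkd1 control 2, lay just under its lowest KO library. Psmd3 went the other way, at 39.5, 48.2 and 48.0 CPM against 71.5, 72.6 and 61.3 (-0.60, SE 0.16, edgeR adjusted p = 0.00958). This was the largest fall among the 44, and its groups were well apart. The other 6 lid genes did not pass: Psmd7 was at 0.24, Psmd11 at 0.20, Psmd13 at 0.19, Psmd14, the enzyme that cuts ubiquitin off substrates, at -0.07, Psmd12 at -0.14 and Psmd6 at -0.31 on the log2 fold change scale. None of the 19S assembly chaperones passed, with Psmd9 at 0.22, Psmd10, also known as gankyrin, at 0.20 and Psmd5 at -0.18.

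The rise of Psmd1 could be followed to single transcripts, since the deposited transcript table accounts for at least 95% of its gene counts. The table does so for 28 of the 44 genes, and for the other 16, Psmd4, Psmd3 and Psma4 among them, transcripts were not analysed here. The coding transcript Psmd1-201 was at 61.3, 61.8 and 63.2 TPM in Pkd1 KO against 51.0, 31.8 and 44.2 in Pkd1 controls, and at 32.6 to 44.3 TPM in the Cep120 libraries. Psmd1-208, annotated as a processed transcript without a coding region, was at 34.9, 26.5 and 15.5 TPM in Pkd1 KO against 0.682, 0.453 and 6.12, and at 1.11 to 3.81 TPM in the Cep120 libraries. Both were higher in every Pkd1 KO library than in any other, and the range of the processed transcript within Pkd1 KO was wide.

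In GENCODE M21 (GRCm38) Psmd1 lies at chr1:86064387-86139151 on the plus strand, and Psmd1-208 starts inside it. Its first exon of 7, chr1:86110817-86111068, 252 bases, lies wholly within the second exon of Htr2b-201 on the minus strand. Htr2b, a serotonin receptor gene, was at 39.6, 42.6 and 41.6 CPM in Pkd1 KO against 6.77, 7.94 and 11.2 in controls, and between 6.25 and 12.1 CPM in the Cep120 libraries (log2 fold change for Pkd1 KO 2.26, SE 0.23, edgeR adjusted p = 1.07e-05). No source used here states whether reads were counted by strand, so those of the shared bases cannot be told apart. The stretch of the Psmd1-208 exon that faces the coding start of Htr2b shows this best. It is chr1:86110817-86110882, plus strand, GRCm38, taken from the GENCODE transcript, with the complement of the Htr2b start codon in capitals:
Psmd1-208, bases shared with the Htr2b coding region: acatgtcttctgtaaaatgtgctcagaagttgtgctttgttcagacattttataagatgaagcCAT
With the counts of Psmd1-208 taken away, a step chosen after its values were seen, Psmd1 stood at 0.29 in Pkd1 KO on the log2 scale with an SE of 0.10 (edgeR adjusted p = 0.0320) in place of 0.41.

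**Figure D3:**
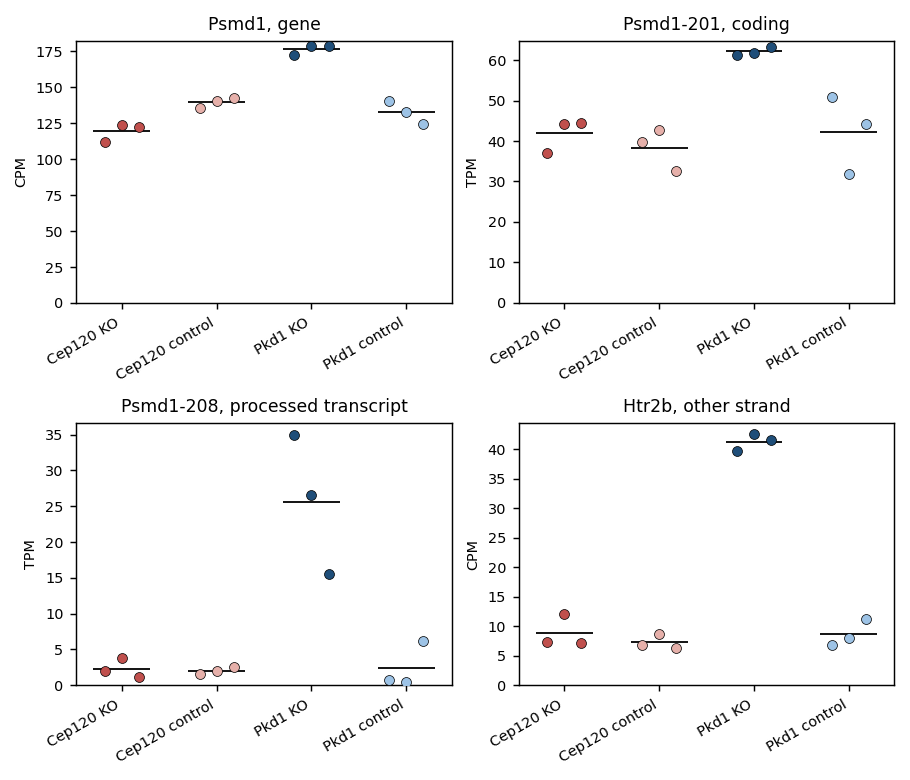
Values in each library (points) with group means (lines) for Psmd1 as a gene in CPM, its coding transcript Psmd1-201 and its processed transcript Psmd1-208 in TPM, and Htr2b, annotated on the other strand, in CPM. Psmd1-208 and Htr2b are both far higher in the 3 Pkd1 KO libraries than in the other 9, while Psmd1-201 is higher by a smaller step.

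Other proteasome genes also overlap a neighbour. In the same annotation, exons of 9 of the 44 share bases with exons of a gene on the other strand. Psmb7 shares 405 bases with Nek6, a mitotic kinase gene that rose in Pkd1 KO (log2 fold change 1.37, edgeR adjusted p = 0.000164). Psmd13 shares 342 bases with Sirt3, a mitochondrial deacetylase gene that fell (-1.10, edgeR adjusted p = 0.000228). Psmc3 shares 215 bases with Slc39a13, a zinc transporter gene (0.38, edgeR adjusted p = 0.0483), and Psme1 shares 14 with Emc9 (-1.03, edgeR adjusted p = 0.00347). The share of these neighbours in the counts of Psmb7, Psmd13, Psmc3 and Psme1 was not tested.

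Among the 7 constitutive alpha subunits, Psma3 and Psma4 fell in Pkd1 KO and none rose. Psma4 was at 171, 179 and 181 CPM in Pkd1 KO against 242, 294 and 199.7 in the controls (log2 fold change -0.47, SE 0.14, edgeR adjusted p = 0.0134). All 3 KO libraries were below all controls. Psma3, whose tail helps to gate the core, was at 126, 132 and 141 CPM against 183, 203 and 149 (-0.42, SE 0.12, edgeR adjusted p = 0.0119), without overlap. The other 5 did not pass, with log2 fold changes of -0.22 for Psma1, -0.16 for Psma2, -0.04 for Psma6, 0.02 for Psma7 and 0.15 for Psma5.

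The fall of Psma3 was not seen in its deposited gene TPM, which was 133, 135 and 144 in Pkd1 KO against 141, 132 and 132 and gave a log2 fold change of 0.03. Its transcripts, which hold nearly all of its counts, differed from each other. The coding transcript Psma3-202 was at 29.5, 28.3 and 37.1 TPM in Pkd1 KO against 51.7, 42.4 and 42.1, while Psma3-203, a form with a retained intron, was at 77.3, 79.4 and 85.2 against 67.5, 69.9 and 65.5. In both, the KO libraries and the controls did not overlap, in opposite directions. Counts of Psma3-202 alone, put in place of the gene after these values were seen, gave -0.79 on the log2 scale with an SE of 0.14 (edgeR adjusted p = 0.000579).

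None of the 7 constitutive beta subunits passed in Pkd1 KO, the cutting subunits included. Psmb5, the chymotrypsin-like site, was at 155, 172 and 182 CPM in Pkd1 KO against 175, 219 and 126 in controls (log2 fold change -0.03, SE 0.21, edgeR adjusted p = 0.904). Psmb6, the caspase-like site, was at 293, 326 and 316 against 315, 424 and 291 (-0.14, SE 0.16, edgeR adjusted p = 0.487). Psmb7, the trypsin-like site, was at 114, 125 and 125 against 138, 174 and 116 (-0.24, SE 0.15, edgeR adjusted p = 0.230). In all 3 genes the groups overlapped, with Pkd1 control 2 the highest library and Pkd1 control 3 at or near the lowest. The structural subunits Psmb1, Psmb2, Psmb3 and Psmb4 were at 0.19, -0.09, -0.07 and 0.09. The sign of Psmb5 depended on the scaling. With the deposited TPM both Psmb5 and Psmb6 were positive.

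Of the core assembly chaperones, which pair up to build the alpha ring, Psmg1 fell. It was at 14.0, 15.3 and 18.6 CPM in Pkd1 KO against 21.6, 29.3 and 18.9 (log2 fold change -0.54, SE 0.17, edgeR adjusted p = 0.0232), and its highest KO library lay just under its lowest control. Its partner Psmg2 was at -0.34 (edgeR adjusted p = 0.0829), Psmg3 at -0.02 and Psmg4 at 0.10. The inhibitor Psmf1, which blocks the core and its activators, was at 70.2, 73.4 and 80.9 CPM against 57.1, 66.9 and 54.1 (0.33, SE 0.11, edgeR adjusted p = 0.0319). It did not overlap between groups. The activators, which open the core without the 19S cap, did not pass: Psme1 was at 0.15, Psme2 at -0.11, Psme3 at -0.25 and Psme4 at -0.37 on the log2 scale. Psme2 has a near-identical copy, Psme2b, and its counts are uncertain for that reason.

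The cap and the core were also set side by side in Pkd1 KO. Of the 17 subunits of the 19S cap that the name pattern took, 5 rose and 1 fell in the main fit. Among the 5, only Psmd1 passed in nearly all alternative runs. The median change of the 17 was 0.19 on the log2 scale. The pattern left out the cap genes Adrm1 (0.41, SE 0.13, edgeR adjusted p = 0.0228) and Sem1 (-0.25, SE 0.14, 0.151). Of the 14 constitutive subunits of the 20S core none rose and 2 fell, and the median was -0.08. Of all genes 22.1% were called higher and 22.4% lower. The mean log2 CPM of the 17 minus that of the 14, each taken relative to the 6 controls, does not depend on library scaling. It was 0.19, 0.18 and 0.15 in Pkd1 KO 1, 2 and 3 against 0.08, -0.11 and -0.01 in the controls. In the Cep120 line it was 0.08, 0.15 and 0.07 in KO libraries against 0.01, 0.05 and -0.02. In both lines every KO library was above every control of its line, by a small margin in the Cep120 line. The difference is a description of these 31 genes, and no test was made on it.

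**Figure D4:**
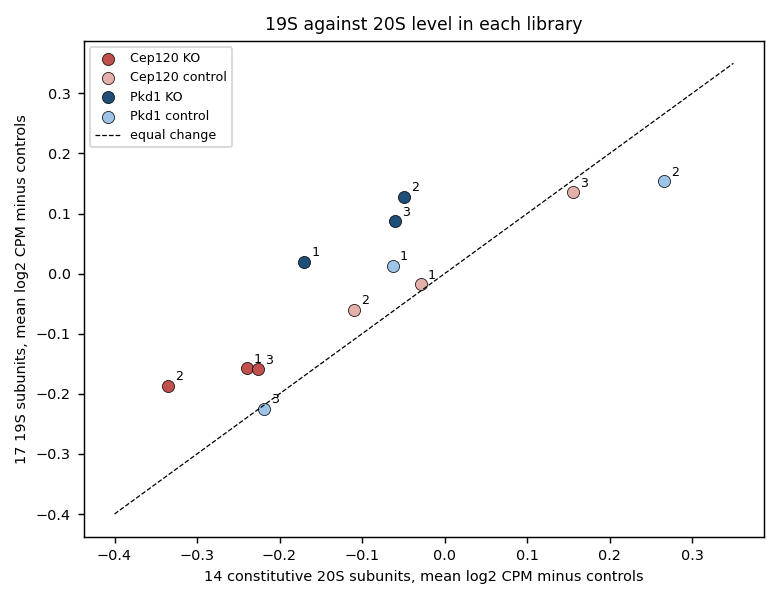
Mean log2 CPM of 17 19S subunits (vertical) against that of 14 constitutive 20S subunits (horizontal) in each library, both minus the mean of the 6 controls; numbers are replicates and the dashed line marks equal change. The 3 Pkd1 KO libraries lie above the line by 0.15 to 0.19, and the Cep120 KO libraries are low on both axes.

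In Cep120 KO kidneys no proteasome gene was called, and small shifts pointed the same way. edgeR called 0 of the 44 (9 had an unadjusted p under 0.05), against a background of 0% of all genes. DESeq2 and voom also called 0 of the 44, where DESeq2 called 21 of all 19890 genes and voom 0. Log2 fold changes were below 0 for 43 of the 44, with a median of -0.21 and a range from -0.55 to 0.01, where the median of all genes was 0.01. The direction depended in part on scaling: 34 were below 0 with library totals or the deposited log2 CPM, where the median of all genes moved to 0.15, and 27 with the deposited TPM. KO and control libraries did not overlap for 20 of the 44, all lower in KO (45.5%), where the background was 7.88% of all genes lower, 8.64% higher and 16.5% in all. By role these were 6 of 7 alpha subunits, 4 of 7 beta subunits, 3 of 6 ATPases, 1 of 3 base scaffolds, 4 of 8 lid subunits and 2 of 3 of the 19S chaperones. The genes share 1 scaling factor per library, so these counts are not independent of each other.

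The smallest p in the Cep120 line belonged to Psmb5, at 121, 116 and 115 CPM in KO against 139, 149 and 229 in controls (log2 fold change -0.55, SE 0.21, unadjusted p = 0.0187 and adjusted p = 0.757 in edgeR). The groups did not overlap, and Cep120 control 3 stood far above the other controls. Psmd13, a lid subunit, was at 97.5, 78.1 and 100.4 CPM against 113, 110.1 and 151 (-0.44, SE 0.17, unadjusted p = 0.0206 and adjusted p = 0.757 in edgeR). Here too Cep120 control 3 was the highest. Psma5 was at 139.7, 140.7 and 142 CPM against 181, 161 and 171 (-0.28, SE 0.11, unadjusted p = 0.0260 and adjusted p = 0.757 in edgeR). Its 3 KO libraries were close together and below every control. Without Cep120 control 3 the log2 fold change of Psmb5 was -0.30, and the median of the 44 was -0.16, with 40 below 0. Among other complexes the median log2 fold change was -0.29 for 83 cytosolic ribosomal protein genes, -0.21 for the 8 genes of the CCT chaperonin and -0.14 for the 10 of the COP9 signalosome, 2 of which were above 0, and 0 of each passed. Among the 7346 genes in the same range of mean expression as the proteasome genes the median was -0.05.

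The Pkd1 and Cep120 effects differed for 4 proteasome genes in the test of the difference itself, against a background of 28.1% of all genes. All 4 were 19S genes that were higher relative to their controls in Pkd1 KO than in Cep120 KO, where 13.9% of all genes were called in that direction and 14.2% in the other. They were Psmd1 (difference of log2 fold changes 0.64, SE 0.13, edgeR adjusted p = 0.00425), Psmd4 (0.61, SE 0.18, 0.0260), Psmd8 (0.61, SE 0.19, 0.0270) and Psmc1 (0.51, SE 0.17, 0.0350). In the Cep120 libraries Psmd1 was at 112, 124 and 123 CPM in KO against 136, 140.3 and 143 in controls. Psmd4 was at 145, 123 and 117 against 147, 142 and 169, and Psmd8 at 199.8, 188 and 188 against 231, 204 and 257. KO and control libraries of the Cep120 line did not overlap for Psmd1 and Psmd8, where KO was lower, and overlapped for Psmd4. Psmc1 was at 206, 189 and 197 CPM against 217, 219.5 and 229.9, also lower without overlap. Without Cep120 KO 2, Cep120 KO 3, Pkd1 KO 2, Pkd1 KO 3 or Pkd1 control 3 the count was 1, without Cep120 control 1 or Pkd1 control 1 it was 2, without Cep120 KO 1 it was 7 and without Pkd1 control 2 it was 12. In fits without a single library, 20.5% to 28% of all genes were called for the difference. With a term for the split in the number of genes with a count, 3 were called, 1 higher and 2 lower, against 31.1% of all genes. Of the 4 genes above only Psmd1 was kept in that fit (Psmd4 0.45 and Psmd8 0.44, edgeR adjusted p = 0.0674 and 0.0681). The difference for Psmd1 passed in every alternative run, at 0.52 to 0.99.

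Upstream sequence of 3 of the 4 genes called in the difference is shown here because a shared element is a common question for proteasome genes. RefSeq promoter windows on GRCm38.p6, 250 bases before to 50 after a start site, matched 37 of the 44 genes. The stretches shown hold no annotated exon. Psmd1, the other of the 4, has a window with no match to any pattern searched and is not printed. They are Psmd4 at chr3:95042650-95042814 on the minus strand, Psmc1 at chr12:100109952-100110091 on the plus strand, Psmd8 at chr7:29180709-29180873 on the minus strand and, for contrast, Psmb5 at chr14:54618031-54618195 on the minus strand. Capitals mark matches, on either strand, to CCAAT (bound by NF-Y), GAAA repeated after any 2 bases (the interferon response core), TGACNNNGC (the core bound by the factors of the Nfe2l family) or TTCNNNGAA (the STAT core):
Psmd4: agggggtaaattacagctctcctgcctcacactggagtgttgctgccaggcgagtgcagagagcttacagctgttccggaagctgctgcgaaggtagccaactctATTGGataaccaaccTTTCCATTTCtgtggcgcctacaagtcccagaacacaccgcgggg
Psmc1: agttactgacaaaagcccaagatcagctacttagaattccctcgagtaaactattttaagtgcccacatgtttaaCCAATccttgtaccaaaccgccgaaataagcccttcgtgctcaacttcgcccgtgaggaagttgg
Psmd8: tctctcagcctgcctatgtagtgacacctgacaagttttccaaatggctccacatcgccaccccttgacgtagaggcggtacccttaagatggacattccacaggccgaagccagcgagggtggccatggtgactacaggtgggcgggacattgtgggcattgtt
Psmb5: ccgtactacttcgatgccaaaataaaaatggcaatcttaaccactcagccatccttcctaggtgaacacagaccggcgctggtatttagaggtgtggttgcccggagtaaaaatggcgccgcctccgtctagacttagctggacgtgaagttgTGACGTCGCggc
Psmd4 holds CCAAT and the GAAA repeat, Psmc1 holds CCAAT, Psmd8 holds none of the 4 patterns and Psmb5 holds TGACNNNGC. Over the 37 genes with a window, CCAAT was found in 12 (32.4%) against 41.1% of all genes with a window, TGACNNNGC in 6 (16.2%) against 14.0%, the GAAA repeat in 5 (13.5%) against 3.99% and TTCNNNGAA in 2 (5.41%) against 9.55%. The 6 genes with TGACNNNGC were Psmb5, Psmb6, Psmc6, Psmd9, Psmd12 and Psme4. None of these was called in Pkd1 KO, where only 6 of the 37 genes with a window were called higher and 3 lower. A link between the pattern and the calls was not tested. The 5 with the GAAA repeat were Psmb3, Psmd4, Psmd9, Psme1 and Psmg4. No pattern contains another, and a match is a description of the letters only.

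Genes that are known to control proteasome genes changed in both directions in Pkd1 KO. Of 10 such regulators 5 rose and 1 fell, and their median change was 0.25 on the log2 scale, where 22.1% of all genes were called higher and 22.4% lower. Those of smallest p were Myc (1.73, SE 0.24, edgeR adjusted p = 0.000105), Stat3 (1.29, SE 0.20, 0.000229), the NF-Y subunit Nfyc (-0.49, SE 0.13, 0.00797) and Nfe2l2, also known as Nrf2 (0.39, SE 0.12, 0.0154). Nfe2l1, the factor that restores proteasome genes after inhibition, was at 0.37 (SE 0.11, edgeR adjusted p = 0.0187) and is named after its value was seen. Its processing enzymes Ddi2 and Ngly1 did not pass.

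Beside the following lists stands the 44.4% of all genes called in Pkd1 KO. Of 17 tested proteasome-associated and assembly factors, 2 rose and 3 fell (29.4% called), with a median of -0.17. Ubqln1, a shuttle protein that carries ubiquitinated proteins to the proteasome, fell (log2 fold change -0.76, SE 0.11, edgeR adjusted p = 0.000149). Akirin2, which takes proteasomes into the nucleus, fell too (-0.77, SE 0.19, 0.00607). Zfand2a, a stress-induced partner of the 19S cap, rose (0.78, SE 0.12, 0.000263). Of 9 genes of ubiquitin and its activation and extraction 4 rose and none fell (44.4%). Among them were Ufd1, a partner of the extraction ATPase (0.59, SE 0.11, edgeR adjusted p = 0.000647), and the ubiquitin genes Rps27a (0.40, 0.0362) and Ubb (0.39, 0.0453). The related COP9 signalosome had 1 gene up, Cops7b (0.40), and 1 down, Cops3 (-0.75), of 10 (20%), and the CCT chaperonin had 2 of 8 up (25%), Cct5 (0.35) and Cct2 (0.28). Of 83 cytosolic ribosomal protein genes 61 rose and none fell (73.5%), with a median of 0.56. In Cep120 KO none of the genes of these lists passed.

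Psmb10, the inducible trypsin-like subunit, varied more between libraries within the Cep120 groups than within the Pkd1 groups. It was at 63.6, 64.8 and 57.7 CPM in Pkd1 KO 1, 2 and 3 against 39.3, 48.7 and 53.2 in Pkd1 controls, and at 114, 40.7 and 42.6 in Cep120 KO against 99.0, 83.1 and 52.3 in Cep120 controls. Its groups did not overlap in the Pkd1 line, yet it did not pass there (log2 fold change 0.40, SE 0.34, edgeR adjusted p = 0.356) or in the Cep120 line (-0.25, SE 0.34, 0.868). Cep120 KO 1 and Cep120 controls 1 and 2 stood above all other libraries. Psmb8, its partner outside the rule, was at 160.4, 129 and 110.3 CPM in those 3 libraries and at 21.2 to 59.2 in the other 9. Psmb9, also outside the rule, was at 62.0, 57.6 and 47.9 CPM in the 3 and at 6.99 to 21.2 in the other 9. In Pkd1 KO these 2 genes pointed opposite ways and neither passed (log2 fold change 0.78 for Psmb8 and -0.67 for Psmb9, edgeR adjusted p = 0.3545 and 0.4746). The summed level of 12 interferon response genes was 902, 666 and 604 CPM in the 3 against 260.3 to 421 in the others. The part of that shift in the level of Psmb10 was not tested. Of the interferon list 2 rose and 2 fell in Pkd1 KO (33.3%, against 44.4% of all genes): Irf9 (0.75) and Oas1a (0.94) rose, and Ifit3 (-1.07) and Isg15 (-0.91) fell.

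The ratio of Psmb10 to the subunit that it replaces, Psmb7, was taken from TPM within each library, so that scaling cancels. In Pkd1 KO it was 0.659, 0.620 and 0.529 against 0.336, 0.348 and 0.568 in the controls. Pkd1 control 3 lay within the KO range, and the difference in mean log2 ratio was 0.57 (KO -0.74 ± 0.16, controls -1.30 ± 0.42, SD, n = 3 each; exact two-sided permutation test, p = 0.2). In Cep120 KO it was 1.38, 0.502 and 0.449 against 0.854, 0.804 and 0.422 (difference 0.03; exact two-sided permutation test, n = 3 each, p = 0.9). The smallest p that 3 against 3 libraries allow is 0.1. In the Cep120 line the sign of the difference depended on Cep120 KO 1 and Cep120 control 3: it was -0.48 without the former and -0.29 without the latter.

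**Figure D5:**
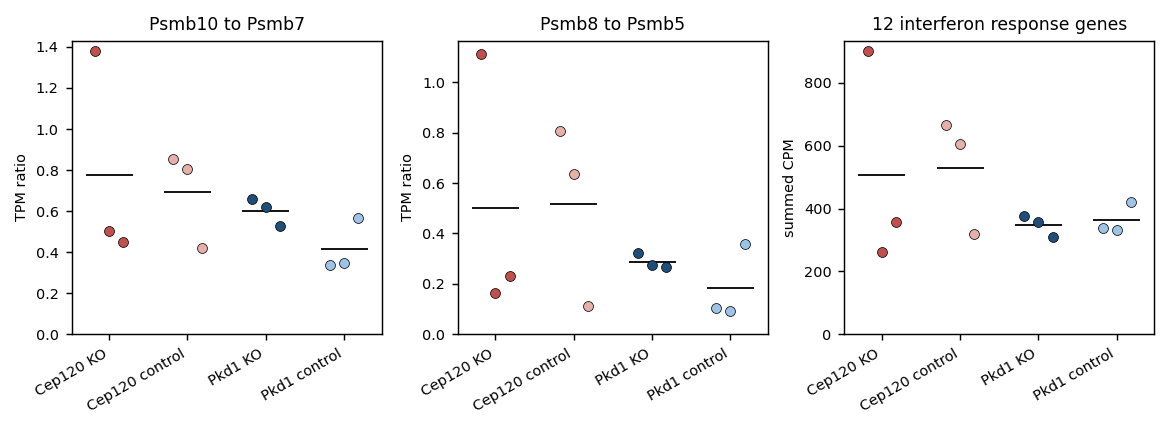
TPM ratio of Psmb10 to Psmb7, TPM ratio of Psmb8 to Psmb5, and summed CPM of 12 interferon response genes in each library (points) with group means (lines). Cep120 KO 1 and Cep120 controls 1 and 2 are the highest libraries in all 3 panels. The ratio of Psmb9 to Psmb6, not drawn, was 0.0163, 0.0121 and 0.0160 in Pkd1 KO against 0.0140, 0.0124 and 0.0420 in Pkd1 controls.

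No proteasome gene was called between the control groups of the 2 lines. edgeR called 0 of the 44, with 0 at an unadjusted p under 0.05, and DESeq2 and voom also called 0, against a background of 0% of all genes. The smallest p values belonged to Psmd2, Psmb10 and Psmf1. Psmd2 was at 238, 194 and 199.3 CPM in Pkd1 controls against 245, 247 and 254 in Cep120 controls (log2 fold change -0.24, SE 0.11, edgeR adjusted p = 0.979). Psmb10 was at the values given above (-0.73, SE 0.34, 0.979), and Psmf1 at 57.1, 66.9 and 54.1 against 68.6, 74.2 and 60.0 (-0.19, SE 0.12, 0.979). Groups overlapped for the last 2 and not for Psmd2, the only one of the 44 without overlap, where the background was 8.12% of all genes, 4.18% higher and 3.94% lower in Pkd1 controls.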

How the data were processed

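The genes and lists described here were chosen with earlier results of these data known. Per the submitters' processing notes the tools were Salmon 0.8.2, STAR 2.5.1a, featureCounts 1.4.6-p5, Subread and bcl2fastq, and the genome build was mm9. Which tool made which table is not recorded there. The authors deposited estimated counts per gene and per transcript (21.6% of genes hold a value that is not whole), moderated log2 CPM and TPM, with no prior count stated for the log2 table.

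Of 55774 lines in the gene table, 287 repeats were dropped. Estimated counts were rounded and fitted in edgeR 4.0.16 (R 4.3.3): filterByExpr kept 19890 genes, TMM factors scaled libraries, and 1 quasi-likelihood fit of 12 libraries and 4 groups gave all comparisons, with Benjamini-Hochberg adjusted p-values over all genes and a threshold of 0.05. CPM are TMM-scaled. The fit was tested on simulated data. Symbols came by gene ID for 55141 IDs. Coordinates, exons and sequences are from GENCODE M21 and RefSeq on GRCm38, not the build of the notes, and none was joined to the files by position. Values in each library were given for the 5 largest rises and falls in Pkd1 KO among called genes, and for Psmb5, Psmb6, Psmb7 and Psmb10. They were also given for the 3 smallest p values of each other comparison. For up to 4 genes of smallest p in each list, log2 fold changes were given. Psmf1 in Pkd1 KO, Nfe2l1, Adrm1, Sem1, Htr2b and the transcripts of Psmd1 and Psma3 were added after their values were seen. Alternatives used DESeq2 1.42.0 and limma 3.58.1. Replicate numbers did not pair the samples. Some genes of the lists are counted but not reported here by name.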

Additional observations from a re-analysis of the deposited data

Results flagged for a closer look

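For 4 of the 44 proteasome genes (9.09%) the effects in the Pkd1 and Cep120 lines differed by the test of the difference itself (edgeR interaction contrast). The background was 28.1% of all genes. The difference of log2 fold changes was 0.64 for Psmd1, 0.61 for Psmd4, 0.61 for Psmd8 and 0.51 for Psmc1. All 4 encode subunits of the 19S cap, and each was above 0 in Pkd1 KO and below 0 in Cep120 KO. In the Cep120 line none of the 4 passed on its own. With the counts of Psmd1-208 taken away, the difference for Psmd1 was 0.52 (edgeR adjusted p = 0.0172).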

How the results depend on the processing

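In Pkd1 KO the count of called proteasome genes, 10, was 2 at an adjusted p of 0.01, 16 with library totals alone (chosen after seeing the data), 6 without a filter on low counts, 18 with the deposited log2 CPM, 22 with the deposited TPM at a pseudocount of 1 or 0.1, 0 with a term for Xist and 5 in a fit of the 6 libraries alone. Leaving out single libraries gave 4 to 10, with 6 or fewer without Cep120 KO 2, Cep120 KO 3, any Pkd1 KO library or Pkd1 control 1. Of all genes 43% were called with library totals, 21.9% without the filter, 43.9% with log2 CPM and 41.8% and 42.1% with TPM. The share of all genes was 10.1% with the Xist term, 43.5% in the fit of 6 libraries and 35.1% to 44.6% without single libraries. Within the Pkd1 line the Xist term splits the libraries as genotype does, so its fit cannot tell them apart. The count for the difference, 4, was 1 at 0.01, 11 at 0.1, 8 with library totals, DESeq2 or voom, 10 with log2 CPM, 11 with TPM at either pseudocount, 1 with the Xist term and 1 to 12 without single libraries. For the difference 28.1% of all genes were called in the main fit, 25.8% with library totals, 32.4% with DESeq2 and 27.8% with voom. The share was 26.2% with log2 CPM, 24.2% and 22.8% with TPM, 21.4% with the Xist term and 20.5% to 28% without single libraries. The share of all genes at the thresholds of 0.01 and 0.1 was not counted, so the counts at those thresholds stand without a background. Without a filter on low counts 1 gene was called in Cep120 KO (Psmb5) and 1 between the controls (Psmb10), against 0.816% and 0.588% of all genes. The cause of these shifts was not tested.

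Same-numbered libraries did not deviate together (correlations -0.17 to -0.01 in the Pkd1 line and -0.04 to 0.20 in the Cep120 line). A fit with the replicate number as a block called 6 proteasome genes in Pkd1 KO, 1 for the difference and 0 elsewhere. That fit called 39.2% of all genes in Pkd1 KO and 21.9% for the difference.

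Signs in Pkd1 KO were followed gene by gene only for the called genes other than Psmf1 and for Psmb5, Psmb6, Psmb7 and Psmb10. Of all 44 genes, 21 were above 0 in the main fit, 28 with library totals and 35 with TPM. Without Pkd1 control 2 there were 31 above 0, and without Pkd1 control 3 there were 17. Psmb5 was at 0.0787 with library totals, 0.0887 with log2 CPM and 0.18 with TPM at either pseudocount. Without single libraries Psmb5 ran from -0.2425 (without Pkd1 control 3) to 0.17 (without Pkd1 control 2), with 0.0097 without Pkd1 KO 1. Psmb6 was at 0.0672 and 0.0673 with TPM at pseudocounts of 1 and 0.1 and ran from -0.269 without Pkd1 control 3 to 0.0447 without Pkd1 control 2. With the Xist term Psmb7 was at 0.0402 and Psmb10 at -0.46. Among the called genes followed, only Psma3 turned, to 0.0297 and 0.0299 with TPM at pseudocounts of 1 and 0.1. The Cep120 difference in the Psmb10 to Psmb7 ratio was -0.0379 from counts, ran from -0.48 without Cep120 KO 1 to 0.3293 without Cep120 KO 3, and was -0.29 without Cep120 control 3 or without both replicate 3 controls. The cause of these turns was not tested. Depth limits the lowest of the 44 most, Psmg4 and Psmg1, at 384 to 662 counts in each library.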
